A study of Rattus norvegicus with 15 samples.

Results

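The genes described here are the interferon response and MHC class I genes of the rat myoblast line H9c2, 53 of the 11574 genes in the deposited count table. They were chosen by gene symbol: the MHC class I heavy chains (RT1 genes), beta-2-microglobulin and the peptide loading genes, the interferon receptors, the Janus kinases and STAT factors, the interferon regulatory factors (IRFs), the RNA sensors and the effector genes that interferons induce. By role, 4 members serve antigen presentation, 8 are class I heavy chains, 4 are receptors, 3 are kinases, 6 are STATs, 7 are IRFs, 2 are RNA sensors and 19 are induced effectors. Tap2, Nlrc5, Usp18, Bst2, Rsad2, Dhx58, Ifit3 and the Mx genes belong to the same families, but the deposited table held no row under these symbols.

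H9c2 is a clonal line of myoblasts from embryonic rat heart, and no animal enters the comparison. All sample titles name H9c2 and the genotype field gives wild type, but the cell line field of the labels counts up by 1 from the T7-RA libraries on, from H9c3 to H9c14, so that field and the titles disagree, and the titles were followed. T0 cultures were collected at day 0 and received no retinoic acid. T7-RA and T14-RA cultures were kept for 7 and 14 days without retinoic acid, and T7+RA and T14+RA cultures for the same times with 1 µM all-trans retinoic acid (RA) added daily. Serum was lowered from 10% to 1% after cell attachment, when differentiation was started, so time in culture and low serum cannot be told apart in any comparison with T0. RA was dissolved in DMSO, and whether the cultures without RA received DMSO is not given in the sources used here. Each of the 5 groups held 3 cultures, and nothing in the labels says more about how separate they were, so p-values measure the spread between these cultures only.

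Interferons bind surface receptors whose Janus kinases phosphorylate STAT factors. Type I interferons act through a complex of STAT factors and Irf9 that binds the interferon-stimulated response element (ISRE), and interferon gamma acts through STAT pairs that bind the gamma-activated site (GAS). The genes switched on this way restrict viruses and load peptides onto MHC class I, a heavy chain held at the cell surface by its light chain B2m, and muscle cells are known to keep class I low at rest.

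Libraries held between 508397 and 1030820 counts. The median member had 180 counts over the 15 libraries, against 358 for all genes, and 21 members had a median count under 10. Of the markers of the labelled cell type, 8 of 9 were in the table, and their summed level in CPM (counts scaled to the library's effective total) was 4106 to 4730 at T0, 5374 to 5602 at T7-RA, 11684 to 12065 at T14-RA, 2965 to 3243 at T7+RA and 5429 to 6095 at T14+RA. The T0 sum was mainly Vim, with a mean of 4014 CPM at T0 and 1282 CPM at T7+RA. From T0 to T7+RA the mean of Myh3 rose from 40.8 to 579 CPM and that of Acta1 from 41.7 to 433 CPM, so the lower sum at T7+RA came from Vim. Between the day 14 groups the sum differed mainly through Myh3 (means of 5056 without and 1874 CPM with RA), Acta1 (3258 and 1655 CPM) and Vim (2003 and 960.1 CPM), while Myog stood at 638 and 569 CPM and Des at 40.3 and 39.5 CPM, and the part of this difference in the results below was not tested. Of 12 leukocyte markers only Cd14 was in the table, and of 6 endothelial markers only Tek, at 0 to 6.29 CPM. The RA-responsive genes Dhrs3, Cyp26b1 and Tgm2 summed to 540 to 1155 CPM in the libraries with RA and to 4.19 to 23.2 CPM in those without.

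Promoter sequences show which members carry the response element in the bases nearest to their start. RefSeq promoters (build GRCr8, 250 bases before to 50 bases after each start) were matched by symbol, 44 of them to 43 of the 53 members. A member was counted if any of its promoters held the motif, while all promoters were counted singly. The ISRE core, searched on both strands as GAAA and GAAA with NN (any 2 bases) between them, was found for 16 of these 43 members, or 37.2%, against 3.92% of all 33469 promoters of the same length. The GAS, searched as TTCNNNGAA, which reads the same on both strands, was found in 9 of the 43, or 20.9%, against 8.87% of all promoters. Among the 11 members that passed a test below, 8 had a promoter and 6 of these held the ISRE core. Their windows follow 5′ to 3′ on the gene's strand, with the ISRE core in capitals, because these are the members whose levels moved with time or RA. They lie at chr3:129549155-129549214 (plus strand) for B2m, chr1:205482349-205482406 (minus strand) for Ifitm2, chr1:205541768-205541827 (minus strand) for Ifitm3, chr1:205800058-205800117 (minus strand) for Irf7, chr2:234005671-234005726 (plus strand) for Gbp2 and chr2:243303841-243303891 (minus strand) for Ifi44.
B2m: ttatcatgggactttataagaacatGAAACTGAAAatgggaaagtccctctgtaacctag
Ifitm2: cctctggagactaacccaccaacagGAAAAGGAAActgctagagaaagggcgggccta
Ifitm3: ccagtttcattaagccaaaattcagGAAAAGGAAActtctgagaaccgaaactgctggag
Irf7: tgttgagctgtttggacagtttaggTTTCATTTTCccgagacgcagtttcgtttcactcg
Gbp2: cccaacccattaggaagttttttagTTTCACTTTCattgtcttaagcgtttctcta
Ifi44: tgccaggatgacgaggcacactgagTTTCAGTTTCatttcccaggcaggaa

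In B2m the core began 150 bases before the start, and in the other 5 windows it began 26 to 69 bases before it. Ifi44 held a further match that began 26 bases after the start, outside the window shown. Ifitm2 and Ifitm3 carried the same 10 letters, and Ifitm3 also held a GAS match that began 33 bases before the start and did not overlap the ISRE core. Jak2 and Parp9 had a promoter without the ISRE core, and Ifit1 and Ifi27l2b had no promoter matched. Members that passed no test held the core too, 10 of the 35 with a promoter, among them Tap1, Tapbp, Ifi27, Ifih1, Isg20 and Parp14. A match describes the letters in the window and says nothing about binding in these cells.

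Levels differed widely between members. Scaled also by the deposited transcript length (TPM), which allows genes to be compared, the mean level over the 15 libraries was highest for Ifitm2 (746 TPM), B2m (734 TPM) and Ifi27 (556 TPM). Ifi27l2b followed at 231 TPM and Ifitm3 at 181 TPM, and the signalling genes Stat6, Jak1 and Irf3 lay between 102 and 109 TPM. Oasl, Irf8 and Ifi47 were the lowest, at 1.43 to 3.09 TPM. In 16 members every library of at least 1 group held 3 counts or fewer, which is treated as the floor: Ifi44, Ifit1, Ifit1bl, Isg15, Xaf1, Oasl, Ifi47, Ifih1, Irf8 and 7 of the 8 class I heavy chains. Differences in these members were often not detectable at this depth. The deposited table kept genes with more than 20 counts in all, and 5 members (Ifi47, Irf8, Oasl, RT1-S3 and RT1-T24-1) held 20 or fewer outside their highest group, so they were in the table only with that group's counts.

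The change with time was estimated in a model with terms for day 7, day 14 and RA over all 15 libraries, tested with edgeR's quasi-likelihood test over all 11574 genes and called at an adjusted p under 0.001. At day 14, 9 of 53 members passed, 8 higher and 1 lower than at T0, while 17.3% of all genes passed, 8.47% higher and 8.85% lower. At day 7, 6 members passed, 5 higher and 1 lower, while 8.73% of all genes passed, 4.29% higher and 4.44% lower. Between day 7 and day 14, B2m and Ifitm3 passed, or 2 members, while 6.89% of all genes passed. The shares of members were 17.0%, 11.3% and 3.77%. At an adjusted p under 0.05, 17 members passed at day 14 (35.4% of all genes), 11 at day 7 (23.1%) and 6 between the days (16.2%). The 17 include Irf8, which was in the table only with its T0 counts. The median log2 fold change of the members was 0.37 at day 14 and 0.22 at day 7, against 0.05 and 0.02 over all genes. The day 7 and day 14 terms share the T0 libraries, so their values stand side by side and do not support each other.

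**Figure D1:**
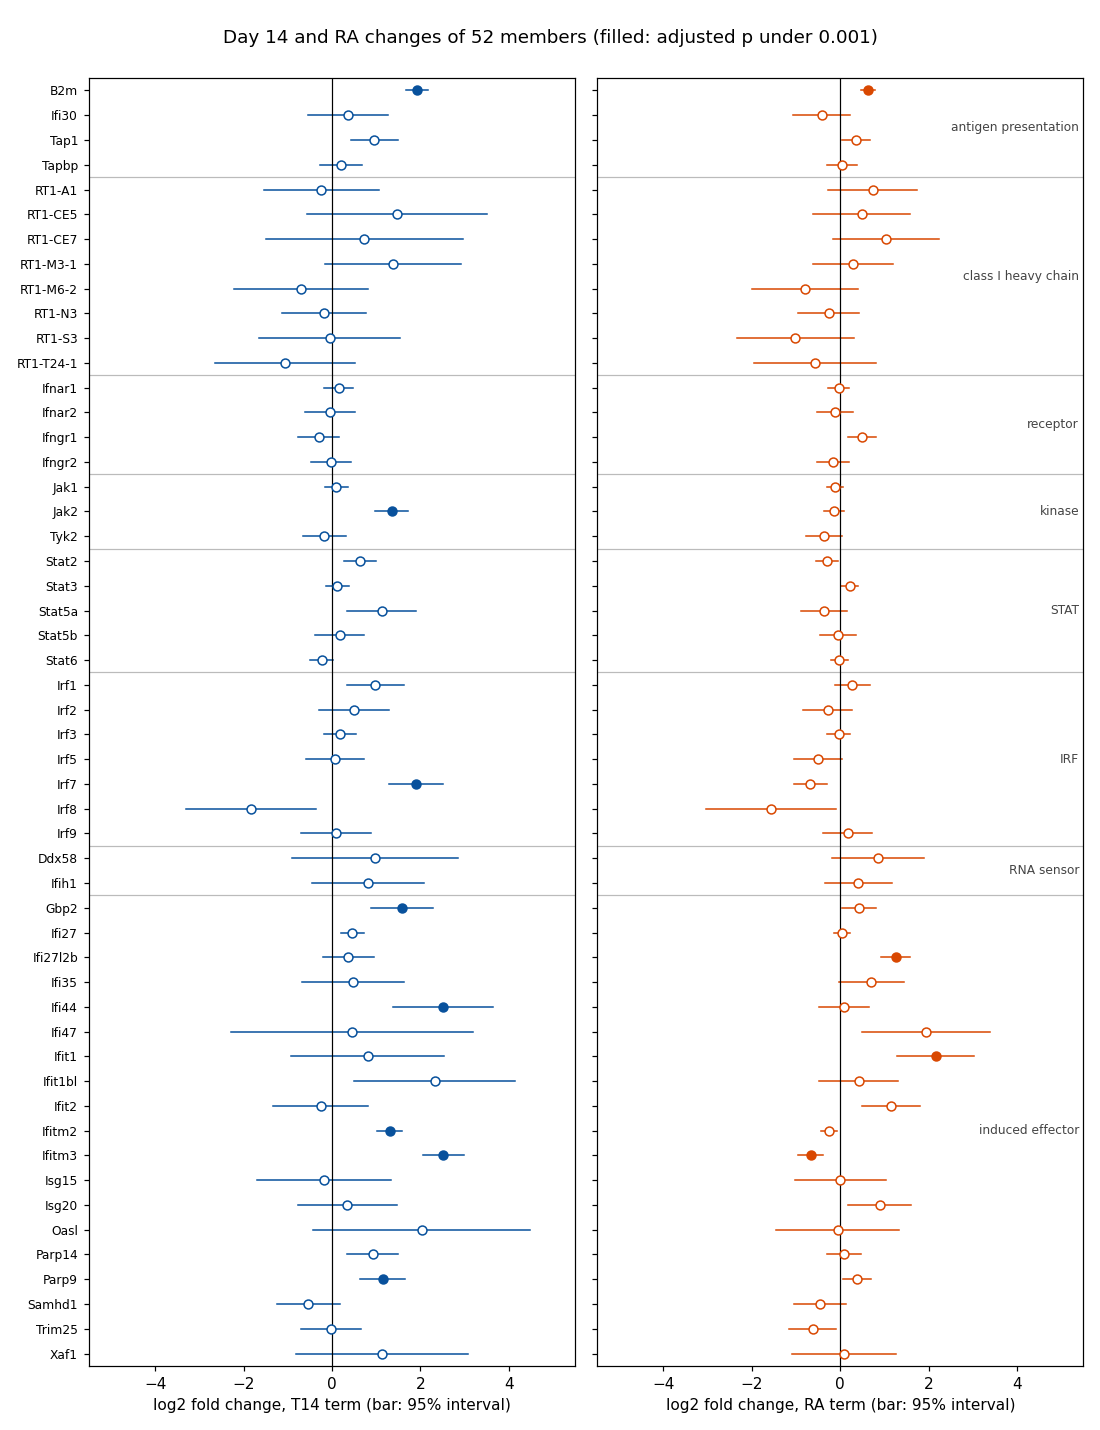
Log2 fold change with its 95% interval for 52 of the 53 members, grouped by role, for the day 14 term (left, blue) and the RA term (right, orange), with members that passed an adjusted p of 0.001 filled. The 8 filled members on the left are B2m, Jak2, Irf7, Gbp2, Ifi44, Ifitm2, Ifitm3 and Parp9, all above 0, and the wide bars belong to members with few counts.

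Among the antigen presentation genes, B2m, the class I light chain, rose with time and again with RA. B2m (ENSRNOG00000017123, band 3q35) measured 218, 188 and 170 CPM in the T0 libraries, 441, 464 and 487 CPM at T7-RA, 830.0, 770.4 and 730 CPM at T14-RA, 858, 801 and 768 CPM at T7+RA and 1080.4, 1165 and 919 CPM at T14+RA. The T0, T7-RA and T14-RA libraries did not overlap, and at either day each culture with RA lay above each culture without it, with 919 and 830.0 CPM the nearest pair at day 14. Its log2 fold change was 1.36 (SE 0.12, adjusted p = 2.87e-13) at day 7 and 1.92 (SE 0.12, adjusted p = 6.54e-20) at day 14, and the second week added 0.56 (SE 0.08, adjusted p = 1.52e-07).

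The other antigen presentation genes did not pass. Tap1, a subunit of the peptide transporter of the endoplasmic reticulum, measured 17.9, 30.0 and 21.0 CPM at T0, 39.2 to 47.7 CPM at T7-RA, 42.3 to 47.8 CPM at T14-RA and 47.0 to 70.7 CPM in the libraries with RA. No T0 library reached the later ones, yet with 10 to 53 counts a library its log2 fold change of 1.00 (SE 0.26) at day 7 and 0.96 (SE 0.26) at day 14 had adjusted p-values of 0.00303 and 0.00306 in edgeR, and the day 14 change passed with scaling by library size. Tapbp, the tapasin that bridges the transporter and the heavy chain, ranged from 27.4 to 62.9 CPM, and its log2 fold change at day 14 was 0.21 with a 95% interval of -0.27 to 0.69. Ifi30, a lysosomal thiol reductase of the class II route, ranged from 4.82 to 23.7 CPM.

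For the class I heavy chains, no change was detectable at this depth. All 8 rows lie in band 20p12, hold between 27 (RT1-T24-1) and 101 (RT1-N3) counts over the 15 libraries, and 0 of 8 passed in any comparison. Summed over the 8 rows, the level was 41.4, 30.0 and 33.5 CPM at T0, 46.5, 36.3 and 29.0 CPM at T7-RA, 40.8, 24.8 and 33.9 CPM at T14-RA, 34.2, 33.6 and 36.0 CPM at T7+RA and 42.4, 40.9 and 36.3 CPM at T14+RA. T7+RA lay just below T14+RA and every other pair of groups overlapped, with means from 33.2 ± 8.04 CPM (SD, n = 3) at T14-RA to 39.9 ± 3.21 CPM (SD, n = 3) at T14+RA. On the TPM scale, B2m stood 3.80 to 4.77 times above the summed heavy chains at T0, 7.76 to 12.9 times at T7-RA, 16.3 to 23.6 times at T14-RA, 18.2 to 20.9 times at T7+RA and 20.8 to 24.5 times at T14+RA. Some class I genes are close copies of each other, which was not checked for these 8 rows, and how reads that map to several of them were counted is not given in the sources used here, so both the single rows and their sum are uncertain.

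**Figure D2:**
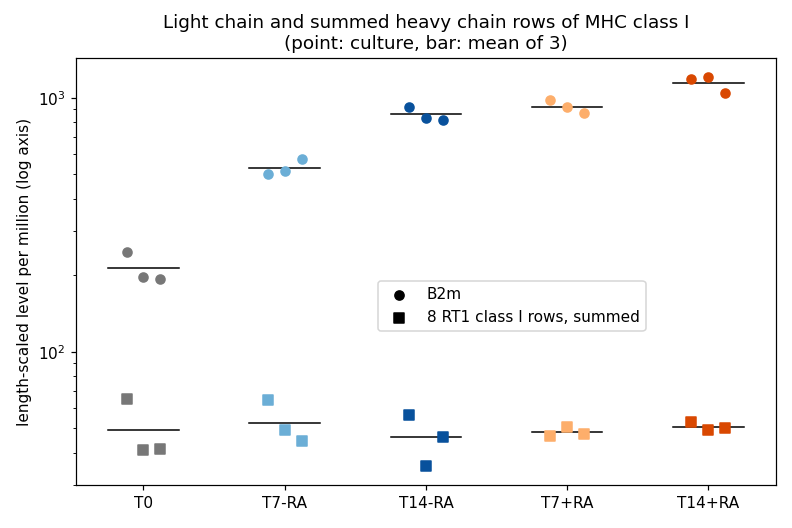
TPM per library (log axis) of B2m (circles) and of the 8 class I heavy chain rows summed (squares), by group, with a bar at the mean of 3 cultures. B2m climbs from about 213 TPM at T0 to about 1142 TPM at T14+RA, while the summed heavy chains stay between 35.5 and 65.3 TPM.

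None of the 4 receptor genes passed in any comparison. Ifnar1, a chain of the type I interferon receptor and the most highly counted of them, had log2 fold changes of 0.15 (95% interval -0.17 to 0.48) at day 14 and -0.04 (95% interval -0.27 to 0.20) with RA, so a 2-fold change lay outside both intervals. Its partner Ifnar2 ranged from 20.4 to 37.6 CPM. Ifngr1, the ligand-binding chain for interferon gamma, measured 49.7 to 65.8 CPM at T7+RA against 39.2 to 45.7 CPM at T7-RA, without overlap, while T14+RA and T14-RA overlapped. Its RA term was 0.49 (SE 0.16, adjusted p = 0.0277 in edgeR), short of 0.001. Ifngr2, the second chain of that receptor, ranged from 25.7 to 55.9 CPM.

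Of the kinases, Jak2, which serves the interferon gamma receptor and several cytokine receptors, rose with time. Jak2 (ENSRNOG00000059968, band 1q52) measured 40.0, 46.9 and 48.2 CPM at T0, 89.5, 98.1 and 119 CPM at T7-RA, 109, 104 and 117 CPM at T14-RA, 78.4, 88.6 and 94.3 CPM at T7+RA and 100.3, 100.6 and 119.6 CPM at T14+RA. All 12 later libraries lay above all T0 libraries, T7+RA lay below both day 14 groups, and the other later groups overlapped. The log2 fold change was 1.15 (SE 0.19, adjusted p = 2.76e-06) at day 7 and 1.35 (SE 0.19, adjusted p = 2.52e-08) at day 14, and the RA term was -0.14 (95% interval -0.37 to 0.09). Jak1, shared by the interferon receptors, had a day 14 change of 0.10 (95% interval -0.16 to 0.36), and per length it remained above Jak2, at a mean of 104 TPM against 38.5 TPM. Tyk2, the partner of Jak1 at the type I receptor, ranged from 11.4 to 59.3 CPM, and its day 7 change of -0.71 (SE 0.25) had an adjusted p of 0.0341 in edgeR.

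Stat2, Stat3, Stat5a, Stat5b and Stat6 did not pass with all libraries and TMM scaling. Stat2, which works with Irf9, measured 97.9, 41.3 and 69.2 CPM at T0 and 108 to 113 CPM at T14-RA, and its day 14 change of 0.64 (SE 0.18) had an adjusted p of 0.00458 in edgeR. Without T0 replicate 1 its value was 1.04 and it passed in edgeR, as it did with scaling by library size. Stat5a, a target of growth hormone and cytokine receptors, stood at 8.38 to 11.3 CPM at T0 and 22.8 to 28.3 CPM at T14-RA, with a day 14 change of 1.12 (SE 0.39, adjusted p = 0.0183 in edgeR). Stat3, the main factor of the interleukin 6 family, changed by 0.12 (95% interval -0.14 to 0.38) at day 14 and had an RA change at day 14 of 0.36 (SE 0.12, adjusted p = 0.0444 in edgeR). Stat6, the interleukin 4 factor, changed by -0.23 (95% interval -0.49 to 0.03) at day 14 and by -0.02 (95% interval -0.21 to 0.18) with RA. Stat5b ranged from 15.7 to 49.1 CPM.

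Irf7, which drives type I interferon genes and is itself interferon-induced, was the IRF that passed. Irf7 (ENSRNOG00000017414, band 1q41) measured 9.66, 18.8 and 16.8 CPM at T0, 32.2, 25.5 and 37.8 CPM at T7-RA, 58.9, 51.4 and 67.7 CPM at T14-RA, 29.9, 22.8 and 25.7 CPM at T7+RA and 24.1, 36.1 and 32.6 CPM at T14+RA. The cultures without RA were ordered by day without overlap, while at day 14 those with RA lay below all those without. Its day 14 change was 1.90 (SE 0.30, adjusted p = 7.24e-07). The RA change at day 14 was -0.98 (SE 0.25, adjusted p = 0.00336) and the RA term -0.67 (SE 0.19, adjusted p = 0.00863), both short of 0.001 in edgeR.

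Irf1, an early target of interferon gamma, measured 15.0 to 18.9 CPM at T0 and 22.0 to 35.4 CPM at T14-RA, and its day 14 change of 0.97 (SE 0.32) had an adjusted p of 0.0135 in edgeR. Irf8, a factor of myeloid cells, held 7, 5 and 3 counts at T0 and 3, 0 and 1 at T14-RA, and no library with RA held more than 1 count. The groups other than T0 held 18 counts together, so Irf8 was kept in the table through the group where it is high, and no test of its difference from T0 is given. Irf3, the constitutive partner of the RNA sensors, changed by 0.18 (95% interval -0.19 to 0.54) at day 14 and by -0.03 (95% interval -0.30 to 0.23) with RA. Irf2, Irf5 and Irf9 passed nothing and ranged from 5.63 to 33.7, 7.13 to 33.8 and 9.06 to 26.7 CPM. The RNA sensors Ddx58 (RIG-I) and Ifih1 (MDA5) passed nothing and ranged from 0 to 18.1 and from 2.76 to 9.65 CPM.

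Of the 19 induced effectors, 5 rose by day 14, namely Ifitm2, Ifitm3, Gbp2, Ifi44 and Parp9, where 8.47% of all genes rose. The IFITM proteins sit in endosomal and surface membranes and block the entry of viruses. Ifitm3 (ENSRNOG00000015078, band 1q41) measured 16.6, 31.9 and 14.7 CPM at T0, 59.6, 61.8 and 61.0 CPM at T7-RA, 107, 119 and 129 CPM at T14-RA, 28.5, 43.0 and 34.3 CPM at T7+RA and 82.0, 80.2 and 67.1 CPM at T14+RA. The cultures without RA were again ordered by day without overlap. Its log2 fold change was 1.50 (SE 0.25, adjusted p = 5.33e-06) at day 7 and 2.52 (SE 0.23, adjusted p = 1.02e-13) at day 14, and the second week added 1.02 (SE 0.14, adjusted p = 6.24e-08).

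Ifitm2 (ENSRNOG00000014936, band 1q41) measured 126, 163 and 103 CPM at T0, 267, 297 and 244 CPM at T7-RA, 349.5, 305 and 306 CPM at T14-RA, 219.5, 217 and 237 CPM at T7+RA and 259, 325 and 227 CPM at T14+RA. All later libraries lay above T0. T7+RA lay below T7-RA and T14-RA, while T14+RA overlapped with both. The log2 fold change was 1.04 (SE 0.14, adjusted p = 3.14e-08) at day 7 and 1.30 (SE 0.14, adjusted p = 1.50e-11) at day 14. Ifitm2 and Ifitm3 are close relatives in the same band, and reads common to both could have been split or dropped, so their separate values are less certain than the counts imply.

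Gbp2 (ENSRNOG00000031743, band 2q44), a guanylate-binding GTPase that attacks vacuoles of intracellular pathogens, measured 11.0, 20.6 and 4.19 CPM at T0, 32.2, 24.2 and 32.0 CPM at T7-RA, 31.2, 53.1 and 47.4 CPM at T14-RA, 57.0, 43.0 and 61.7 CPM at T7+RA and 38.6, 44.0 and 47.1 CPM at T14+RA. T0 lay below all later libraries, T7+RA lay above T7-RA, and the day 14 groups overlapped. Its log2 fold change was 1.52 (SE 0.35, adjusted p = 0.000762) at day 7 and 1.58 (SE 0.35, adjusted p = 0.000242) at day 14, and its RA change at day 7 was 0.85 (SE 0.26, adjusted p = 0.0257 in edgeR). Over the fits that left out 1 library the day 14 value ran from 1.26 to 2.12, with the call lost without T0 replicate 1, T0 replicate 3, T14-RA replicate 2 or T14-RA replicate 3. The day 7 value ran from 1.20 to 2.06, with the call lost without those 2 T0 libraries, T7-RA replicate 1 or 3, T14-RA replicate 2 or 3, T7+RA replicate 1 or 3, or T14+RA replicate 1.

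Parp9 (ENSRNOG00000023463, band 11q22), a partner of the ubiquitin ligase Dtx3l, measured 24.8, 24.4 and 21.0 CPM at T0, 42.9, 29.6 and 42.1 CPM at T7-RA, 45.6, 62.0 and 40.6 CPM at T14-RA, 39.9, 37.6 and 53.1 CPM at T7+RA and 72.3, 69.1 and 72.5 CPM at T14+RA. T14+RA lay above every other library and T0 below every other library. The day 14 change was 1.14 (SE 0.26, adjusted p = 0.000279), at 1.06 to 1.24 over the fits that left out 1 library, with the call lost without T0 replicate 1, T0 replicate 3 or T14-RA replicate 2. Ifi44 (ENSRNOG00000022218, band 2q45), an interferon-induced cytoplasmic protein, held 0, 3 and 2 counts at T0, 14, 7 and 11 at T7-RA, 9, 13 and 9 at T14-RA, 8, 7 and 9 at T7+RA and 18, 15 and 11 at T14+RA. T0 did not overlap with any later group, and the ratio of T14-RA to T0, scaled by depth, was 5.41 (95% counting interval 2.09 to 17.8). Its day 14 adjusted p was 0.000301 in edgeR, and the call was lost without T0 replicate 1 or T14-RA replicate 2. The fitted value ran from 1.79 to 3.26 over all 15 fits that left out 1 library. The day 14 calls of Ifi44 and Parp9 and the day 7 call of Gbp2 were also lost with limma-voom and DESeq2, and the day 14 call of Gbp2 with limma-voom.

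**Figure D3:**
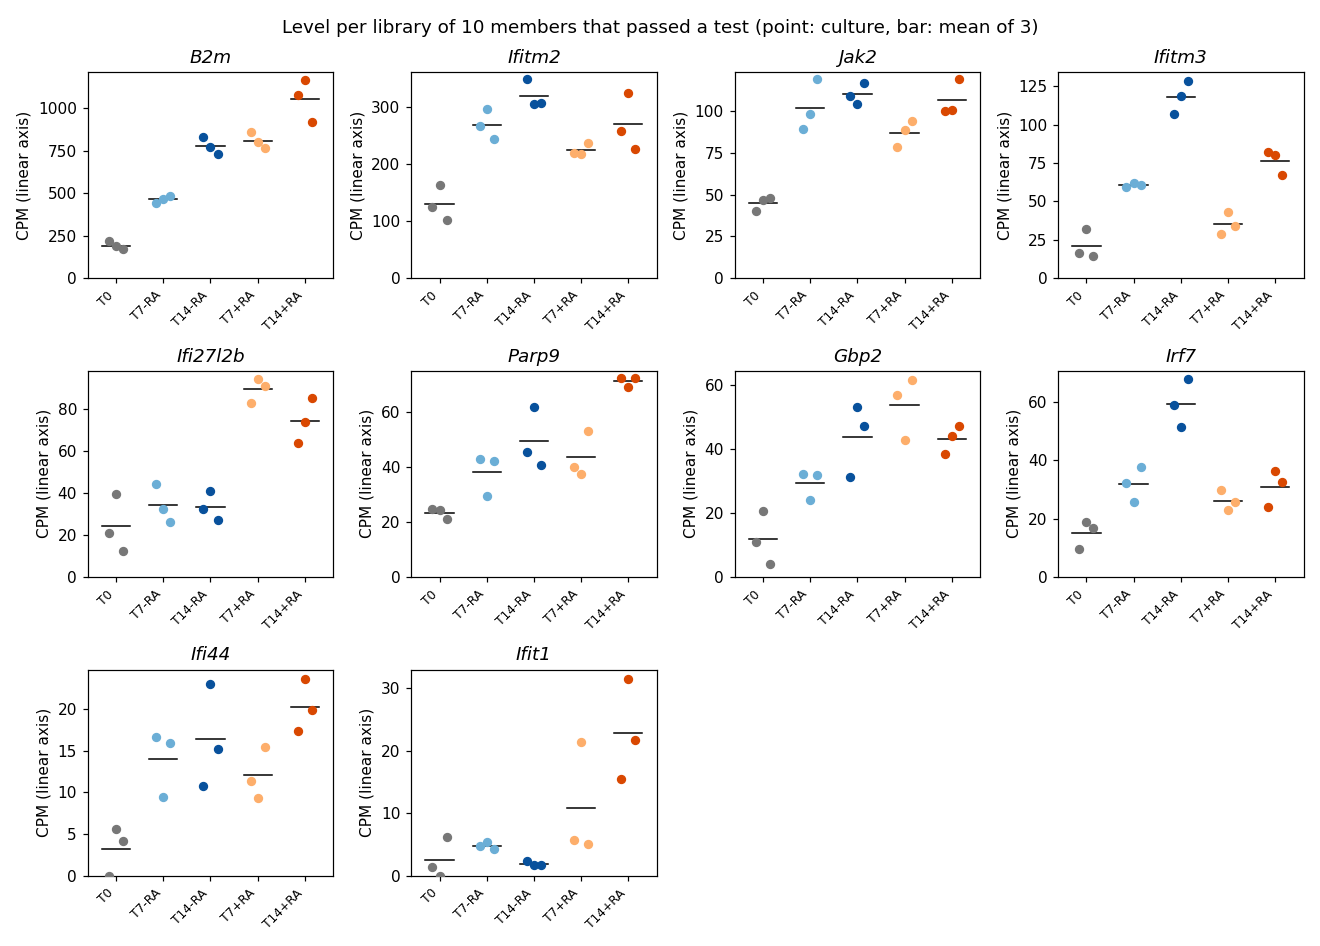
CPM in each of the 15 libraries (points) and the mean of 3 cultures (bars), by group, for 10 members that passed in at least 1 comparison, each on its own linear axis from 0. B2m, Ifitm2, Ifitm3, Jak2, Gbp2, Irf7, Ifi44 and Parp9 have their lowest mean at T0, Ifi27l2b separates by RA at both days, and Ifit1 separates by RA at day 14.

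The change with RA was tested as the RA term of the same model, over both days, and then within each day by T7+RA against T7-RA and T14+RA against T14-RA with a mean for each group. Over both days 4 of 53 members passed, B2m, Ifi27l2b and Ifit1 higher and Ifitm3 lower, while 6.39% of all genes passed, 3.33% higher and 3.07% lower. At day 7, B2m and Ifi27l2b passed, or 2 members, while 3.17% of all genes passed. At day 14, B2m, Ifi27l2b and Ifit1 passed, or 3 members, while 4.81% of all genes passed. Ifit1 is counted at day 14 and over both days although it was in the table only through the libraries with RA. The shares of members were 7.55%, 3.77% and 5.66%, near the backgrounds. At an adjusted p under 0.05, 8 members passed for RA (14.7% of all genes), 4 at day 7 (7.41%) and 7 at day 14 (11.2%). The median log2 fold change of the members was 0.00 for the RA term, -0.11 at day 7 and 0.16 at day 14, against -0.01, -0.02 and 0.00 over all genes. The RA term and the 2 day-wise comparisons use the same libraries. In bulk RNA a change in the share of cells that express a gene and a change in its RNA per cell cannot be told apart.

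For B2m, whose libraries are given above, the RA term was 0.62 (SE 0.08, adjusted p = 9.64e-09), with 0.80 (SE 0.10, adjusted p = 4.74e-09) at day 7 and 0.44 (SE 0.10, adjusted p = 0.000595) at day 14. The day 14 value ran from 0.37 to 0.53 over the 15 fits that left out 1 library. Its call was lost in 7 of them, namely without T7-RA replicate 1, any T14-RA replicate, T7+RA replicate 3 or T14+RA replicate 1 or 2. It was also lost with limma-trend, at 0.28, and with scaling by library size, at 0.42. The day 7 call held in each of these 15 fits, at 0.76 to 0.85.

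Ifi27l2b (ENSRNOG00000026605, band 6q32), a small relative of the mitochondrial protein Ifi27, was raised by RA at either day and did not pass with time. It measured 20.7, 39.4 and 12.6 CPM at T0, 44.1, 32.3 and 26.1 CPM at T7-RA, 32.4, 40.7 and 27.1 CPM at T14-RA, 82.7, 94.0 and 90.8 CPM at T7+RA and 63.7, 73.9 and 85.2 CPM at T14+RA. All 6 libraries with RA lay above all 9 without. The RA term was 1.25 (SE 0.16, adjusted p = 1.46e-08), with 1.36 (SE 0.22, adjusted p = 4.29e-06) at day 7 and 1.13 (SE 0.24, adjusted p = 0.000336) at day 14. The day 14 value ran from 1.02 to 1.27 over all 15 fits that left out 1 library. Its call was lost without T14-RA replicate 1 or 3 or T14+RA replicate 2 or 3, and with limma-voom, limma-trend and DESeq2. Ifi27 itself, in the same band and among the most highly expressed members, had an RA term of 0.03 (95% interval -0.15 to 0.21) and a day 14 change of 0.46 (SE 0.13, adjusted p = 0.00289 in edgeR), which passed without T0 replicate 2 (0.59) and with scaling by library size (0.57).

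Ifit1 (ENSRNOG00000019050, band 1q53), which binds viral RNA that lacks the host cap, rose with RA at day 14. It held 1, 0 and 3 counts at T0, 4, 4 and 3 at T7-RA, 2, 1 and 1 at T14-RA, 4, 16 and 3 at T7+RA and 16, 20 and 12 at T14+RA. T14+RA lay above every T14-RA library by counts and by CPM, while at day 7 the groups overlapped and T7+RA replicate 2 stood apart. The ratio of T14+RA to T14-RA, scaled by depth, was 10.7 (95% counting interval 3.93 to 40.9), with an adjusted p of 5.16e-05 in edgeR for RA at day 14. The 9 libraries without RA held 19 counts together and those with RA 71, so Ifit1 was in the table only through the libraries with RA. Its call for the RA term is therefore given without a p-value and is no support for a change with RA. The day 14 call uses part of the same libraries and is not independent of them. The day 14 call was lost without T14-RA replicate 1 or T14+RA replicate 2, and that of the RA term also without T7+RA replicate 2. Over all 15 fits that left out 1 library the fitted log2 values were 3.06 to 3.62 for day 14 and 1.93 to 2.37 for the RA term. Limma-voom lost both calls, limma-trend that of the RA term and DESeq2 that of day 14. Without T14-RA replicate 1 or without T14+RA replicate 2, 0 members passed for RA at day 14 in edgeR, against 3 with all libraries.

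Neighbouring low-count effectors are given as values. Ifit2, in the band of Ifit1, measured 12.4, 0 and 12.6 CPM at T0, 3.39 to 13.4 CPM in the later libraries without RA and 12.5 to 25.4 CPM in those with RA, and its RA term of 1.15 (SE 0.33) had an adjusted p of 0.00966 in edgeR. Ifi47, a GTPase of the immunity-related family, held 1, 1 and 0 counts at T14-RA and 3, 8 and 5 at T14+RA. The other 4 groups held 13 counts together, so Ifi47 was kept in the table through T14+RA, and no test of its RA change is given. Ifit1bl held 12 counts over the T14-RA libraries and 2 over the T0 libraries, a ratio of 5.24 (95% counting interval 1.17 to 48.2), with an adjusted p of 0.0393 in edgeR for day 14. Parp14, in the band of Parp9, had a day 14 change of 0.92 (SE 0.29, adjusted p = 0.0098 in edgeR).

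The classical interferon-induced genes Isg15, Isg20, Oasl and Xaf1 passed nothing. Isg15, a ubiquitin-like modifier, held at most 7 counts in any library, Oasl, a sensor-linked protein of the oligoadenylate synthetase family, at most 5, Xaf1, an apoptosis gene, at most 5, and Isg20, an exonuclease, at most 18. Ifi35, Trim25 and Samhd1 also passed nothing, at 0 to 20.3, 3.14 to 25.4 and 6.86 to 41.9 CPM. Trim25 is the ubiquitin ligase that activates Ddx58, and Samhd1 a nucleotide hydrolase that limits viral DNA synthesis.

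Ifitm3 was the member lowered by RA. At day 7 the cultures with RA (28.5 to 43.0 CPM) lay below those without (59.6 to 61.8 CPM), and at day 14 those with RA (67.1 to 82.0 CPM) again lay below those without (107 to 129 CPM). The RA term was -0.67 (SE 0.14, adjusted p = 0.000225). Taken singly, the days gave -0.78 (SE 0.22, adjusted p = 0.0177) and -0.60 (SE 0.18, adjusted p = 0.0147) in edgeR, both short of 0.001. The RA term ran from -0.72 to -0.61 over all 15 fits that left out 1 library. Its call was lost without T14-RA replicate 3, T7+RA replicate 1 or T14+RA replicate 3, and with limma-trend, at -0.70. Ifitm2 had an RA term of -0.26 (SE 0.09, adjusted p = 0.0476 in edgeR). Within the genes that rose with time, B2m was higher and Ifitm3 lower in the presence of RA, and Irf7 had an RA term of -0.67 that missed the threshold.

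**Figure D4:**
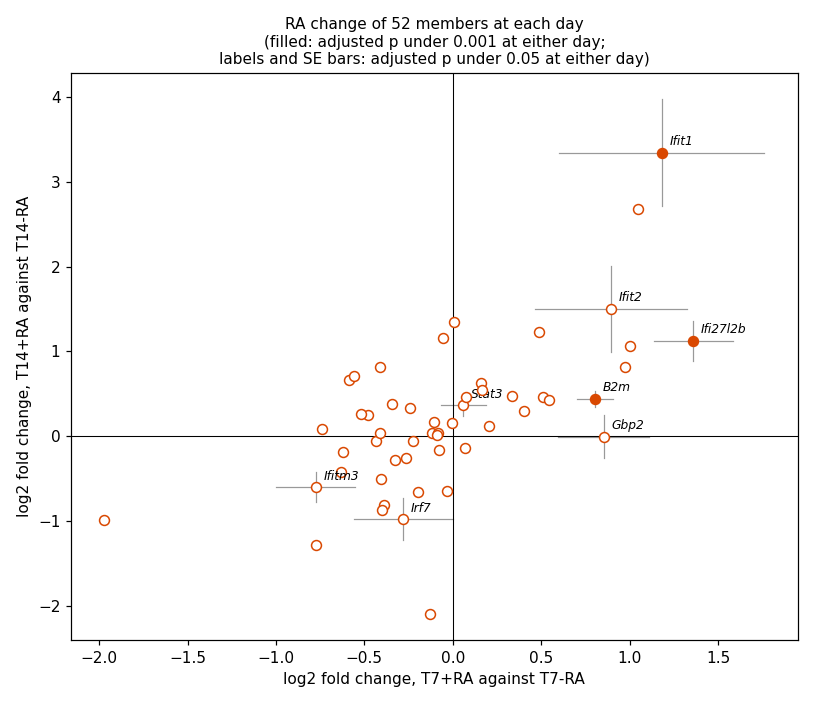
Log2 fold change with RA at day 7 (horizontal) and at day 14 (vertical) for 52 of the 53 members, with members that passed an adjusted p of 0.001 at either day filled, and names and SE bars for those under 0.05 at either day. Ifi27l2b, B2m and Ifit1 lie in the upper right and Ifitm3 in the lower left.

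The difference between the RA changes of the 2 days was tested directly as an interaction. In edgeR 0 of 53 members passed an adjusted p of 0.05, while 0.743% of all genes passed, and limma-voom, limma-trend and DESeq2 also gave 0. An unadjusted p under 0.05 was reached by 4 members in edgeR (B2m, Gbp2, Ifit1 and Tapbp), 6 in limma-voom, 4 in limma-trend and 2 in DESeq2. For Ifit1 the difference was 2.16 (SE 0.95, adjusted p = 0.503) and for B2m -0.36 (SE 0.14, adjusted p = 0.364), so a call at 1 day and not the other does not show that the days differ. Of the 53 members, 18 lay above 0 at both days, 18 below 0 at both days, 15 below 0 at day 7 and above 0 at day 14, and 2 the reverse.

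Other genes of the pathway were taken from a list of 80 symbols, of which 52 were in the table. At day 14, 5 of these rose and 2 fell, at day 7 4 rose, and with RA 5 rose and 1 fell, where 17.3%, 8.73% and 6.39% of all genes passed in either direction. Of the antigen processing genes, Psme2, a proteasome activator subunit induced by interferon gamma, stood at 15.6 ± 5.74 CPM (SD, n = 3) at T0 and 37.3 ± 3.49 CPM at T14-RA, with a day 14 change of 1.38 (SE 0.30, adjusted p = 0.000169). Canx and Erap1, a chaperone and a peptide trimmer of class I assembly in the endoplasmic reticulum, rose with RA by 0.38 (SE 0.07, adjusted p = 5.99e-05) and 0.49 (SE 0.11, adjusted p = 0.00081), and the chaperone Calr fell by 0.46 (SE 0.09) on the log2 scale at day 14 (adjusted p = 7.05e-05). Of the 9 antigen processing genes in the table, 2 passed at day 14 and 2 with RA, and the interferon-induced proteasome subunit Psmb9 had a day 14 adjusted p of 0.00346 in edgeR on 59 counts.

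Of the sensing genes, the RNA-activated kinase Eif2ak2 rose by 0.91 (SE 0.15, adjusted p = 7.80e-07) at day 14 and the RNA-editing enzyme Adar fell by 1.12 on the log2 scale (SE 0.22, adjusted p = 4.46e-05), while the other 8 of 10 passed nothing. Of the 8 negative regulators in the table, the tyrosine phosphatase Ptpn1 had the lowest adjusted p, 0.00378 in edgeR for a day 14 change of -0.70 (SE 0.20), and Socs1 and Cish held 25 and 33 counts in all. Of the 7 ligands and cytokine receptors of the same Janus kinases in the table, 2 rose and 1 fell with RA and 4 did not pass, where 3.33% of all genes rose and 3.07% fell. Lif, a ligand of the interleukin 6 family, stood at 17.4 ± 2.88 CPM at T7-RA and 80.7 ± 10.5 CPM at T7+RA, with an RA term of 2.00 (SE 0.20, adjusted p = 2.93e-12). The receptor chain Osmr rose with RA by 0.90 (SE 0.21, adjusted p = 0.000832), and the common chain Il6st fell with RA by 0.48 on the log2 scale (SE 0.09, adjusted p = 7.11e-05) after a day 14 change of 1.02 (SE 0.13, adjusted p = 5.96e-09). Il6r rose by day 14, by 2.70 (SE 0.54, adjusted p = 5.48e-05), from 2.46 ± 2.81 CPM at T0, and the fitted value ran from 2.26 without T0 replicate 3 to 4.09 without T0 replicate 1, with the call kept in all 15 fits that left out 1 library. Over the same fits the RA call of Osmr was lost in 10, without any T7-RA, T14-RA or T7+RA replicate or T14+RA replicate 1, and that of Erap1 in 8, without T7-RA replicate 2 or 3, any T14-RA replicate, T7+RA replicate 1 or 2 or T14+RA replicate 1. The day 14 calls were lost without T0 replicate 2 for Psme2, T0 replicate 1 or 3 for Adar and T0 replicate 1 or T14-RA replicate 1 for Calr. The RA calls of Osmr, Erap1 and Canx were lost with limma-trend, those of Osmr and Erap1 also with limma-voom, DESeq2 and scaling by library size, and the day 14 calls of Psme2, Il6r and Calr with limma-voom, DESeq2 and limma-trend in that order. The ligand genes Ifnb1, Ifng and Ifna1 were on the list but had no row in the table.

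Of 18 further induced genes in the table, Lgals3bp rose by 0.74 (SE 0.16, adjusted p = 0.000141) at day 14, a call lost without T0 replicate 3, and Igtp rose with RA. Igtp, an immunity-related GTPase like Ifi47, stood at 14.0 ± 6.45 CPM at T14-RA and 43.9 ± 4.11 CPM at T14+RA, with an RA change at day 14 of 1.59 (SE 0.34, adjusted p = 0.000456), and this call was lost with limma-voom, limma-trend and DESeq2 and without any T14-RA replicate or T14+RA replicate 1 or 3. Cd14, the leukocyte marker in the table, was highest in the same group, at 37.6 to 58.1 CPM at T14+RA against 16.9 to 28.8 CPM at T14-RA, while the other 11 leukocyte markers were not in the table. Its RA change at day 14 had an adjusted p of 0.0109 in edgeR, and its part in the results for Ifit1 and Igtp was not tested.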

How the data were processed

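RNA of 15 H9c2 cultures was sequenced, and their groups (3 cultures each) were read from the sample titles. The authors prepared stranded mRNA libraries and used HISAT2 for mapping and featureCounts for gene counting, both on Galaxy. The submitters' processing notes name the build Rnor_6.0, and tool versions, the annotation release and the strand and multi-mapping settings are not given in the sources used here. The authors deposited raw counts for genes with more than 20 counts over all libraries. The smallest sum was 21. The table also holds symbols, cytogenetic bands and transcript lengths, but no coordinates.

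Members were the rows whose symbol matched the families given in the report. The members and the gene lists were chosen with earlier results of these data known. Counts of all 11574 genes were fitted in R 4.3.3 with edgeR 4.0.16 (TMM factors, quasi-likelihood F-test, robust), first with terms T7, T14 and RA and then with a mean for each group. P-values were adjusted by Benjamini-Hochberg over all genes within each comparison, and calls needed an adjusted p under 0.001, or under 0.05 for the difference between days. SEs were derived from the F statistic. CPM used the TMM factors, and TPM was computed from the deposited counts and lengths. Ratios of counts carry exact 95% intervals that cover counting error only, since reads carry no molecular identifiers. Depth was 508397 to 1030820 counts per library, and the biological coefficient of variation was 9.81%. The smallest chi-square per gene between replicates was 1.07, so none were merged. The code was tested on simulated data.

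Named with full statistics were the members that passed a comparison. Also named were members at the floor of 3 counts in a group, the 10 most highly counted members that passed nothing, and list genes that passed. Other values were chosen after they were seen. Alternatives were limma 3.58.1 (voom, and trend on quantile-normalized log2 counts with a pseudocount of 1), DESeq2 1.42.0, and other scalings, filters and thresholds. Further alternatives were T7-RA and T14-RA against T0 in the fit of group means, a replicate block and leaving out each library. 1 member is not reported here. No paralogue comparison of proteins was made.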

Additional observations from a re-analysis of the deposited data

How the results depend on the processing

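Limits are set by depth: with 21 members at a median count under 10, small changes in them were not detectable. At an adjusted p under 0.05 in place of 0.001 the members that passed were 11 at day 7 (23.1% of all genes), 17 at day 14 with Irf8 counted (35.4%) and 6 for day 14 minus day 7 (16.2%). They were 8 for RA (14.7%), 4 for RA at day 7 (7.41%) and 7 for RA at day 14 (11.2%). With at least 10 counts in every library, 19 members and 5931 genes were left to test. Of these members, 3 passed at day 7 (13.7% of the genes tested), 6 at day 14 (25.1%) and 1 for day 14 minus day 7 (9.46%). With RA, 1 passed over both days (8.48%), 1 at day 7 (4.6%) and 1 at day 14 (6.76%). Limma-trend gave 2 for RA, and limma-voom, limma-trend and DESeq2 each gave 1 for RA at day 14; the cause was not tested. Leaving out 1 library gave 4 to 6 at day 7, 6 to 10 at day 14 (6 without T14-RA replicate 2), 2 to 2 for day 14 minus day 7, 3 to 4 for RA, 2 to 2 for RA at day 7, 0 to 3 for RA at day 14 and 0 to 0 for the difference between days. Scaling by library size moved the median of all genes to 0.13 at day 7 and 0.15 at day 14. RLE factors and filterByExpr (36 members, 9176 genes) changed no call. With T7-RA and T14-RA each set against T0 in the fit of group means over all libraries, 12 of 15 calls of time held. Those lost were Gbp2 at day 7 and Ifi44 and Parp9 at day 14. No call of a member changed sign. Of members that passed nothing, only the 10 most highly counted were recomputed one by one, for day 14 and RA, of which Ifi27, Stat2 and Tap1 passed at day 14 with scaling by library size (0.568, 0.743 and 1.06), Ifi27 also with at least 10 counts in every library (0.521) or without T0 replicate 2 (0.591) and Stat2 also without T0 replicate 1 (1.04). The values that changed sign were RA terms near 0: Ifi27 with limma-trend (-0.00621), and, over the fits without 1 library, Ifi27 (-0.00891 to 0.056), Stat6 (-0.0766 to 0.0404), Ifnar1 (-0.0645 to 0.0386), Irf3 (-0.129 to 0.0387) and Tapbp (-0.0461 to 0.143). Replicate numbers did not pair the samples: deviations from group means of libraries with the same number correlated at 0.018 on average (-0.0352 to 0.0991), 0 of 30 pairs exceeded 0.1, and 6 of 15 libraries correlated best with their own number. A replicate block left all 26 calls of members in place.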
